A study of Arabidopsis thaliana with 21 samples.

Results

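The loci described here were the tRNA genes of the nuclear chromosomes in the gene annotation that accompanied an RNA-seq study of Arabidopsis thaliana. A locus was included when the annotation entered it as a gene, noted it as tRNA and placed it on chromosome 1, 2, 3, 4 or 5. This gave 631 loci, of 689 tRNA loci in all (37 lay on the chloroplast and 21 on the mitochondrial chromosome) and of 33602 loci of any class. Nuclear tRNA genes made up 1.89% of the 33323 nuclear loci, and the other 32692 nuclear loci served for comparison.

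The study sequenced poly(A)-selected, strand-specific libraries from plants of the Col-0 ecotype grown with 16 h of light per day at 20 C. Its 7 groups of 3 libraries comprised 4 of the soc1-ful genotype (leaf, wood stem, cambium stem and herbaceous stem) and 3 of WT, the wild type (leaf, cambium stem and herbaceous stem). SOC1 and FUL encode MADS-box transcription factors known for their roles in flowering. The annotation is a single description of the genome used for all 21 libraries, so it holds no value for any library, and expression was not analysed here.

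Transfer RNAs carry amino acids to the ribosome and read codons through a triplet called the anticodon. Their genes are transcribed by RNA polymerase III from promoter elements that lie inside the gene, the A box and the B box, and transcription ends at a run of T residues after the gene. Some tRNA genes, in plants those for tyrosine and for elongator methionine, hold a short intron next to the anticodon that must be spliced out. Mature tRNAs have no poly(A) tail, so poly(A) selection is not designed to capture them.

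The positions below are TAIR10 positions as deposited, and the sequences were read at them from the TAIR10.1 assembly, whose 5 nuclear chromosomes have the same lengths. Amino acid, anticodon and intron were taken from the RefSeq annotation of TAIR10.1, which has an entry for 623 of the 631 loci. The first sequences shown are the 3 genes of the first unit of the longest array, 1 serine gene and 2 tyrosine genes in a row on the plus strand of chromosome 1. Capitals mark the B box core in the serine gene and the intron in the tyrosine genes. The second tyrosine gene is followed by what the deposited annotation holds of it, which stops just after the anticodon.
AT1G56730 (Ser, chr1:21268787-21268868, plus): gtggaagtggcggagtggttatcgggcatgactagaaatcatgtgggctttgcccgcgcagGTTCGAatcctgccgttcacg
AT1G56740 (Tyr, chr1:21269122-21269206, plus): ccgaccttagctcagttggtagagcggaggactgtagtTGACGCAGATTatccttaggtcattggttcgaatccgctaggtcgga
AT1G56750 (Tyr, chr1:21269552-21269636, plus): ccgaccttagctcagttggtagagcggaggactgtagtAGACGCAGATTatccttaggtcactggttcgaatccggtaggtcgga
AT1G56750 as deposited (chr1:21269552-21269588, plus): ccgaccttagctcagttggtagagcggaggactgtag

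The next 2 sequences show a gene with its surroundings, 20 bases before it and 25 after it. Capitals mark, where present, CAA shortly before the gene, the A box, the B box core and the first run of at least 4 T after the gene. The proline gene AT1G28740 is the first member of the largest family of identical genes. The tyrosine gene AT2G07753 lies in a stretch of chromosome 2 that matches the mitochondrial genome, and it had the B box core alone.
AT1G28740 (Pro, chr1:10090348-10090464, plus): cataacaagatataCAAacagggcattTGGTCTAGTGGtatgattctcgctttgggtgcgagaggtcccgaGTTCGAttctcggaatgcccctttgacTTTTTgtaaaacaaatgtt
AT2G07753 (Tyr, chr2:3303329-3303448, minus): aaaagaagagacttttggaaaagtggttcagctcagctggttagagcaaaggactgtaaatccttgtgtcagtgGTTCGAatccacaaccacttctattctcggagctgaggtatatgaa

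The 631 genes were spread unevenly over the chromosomes. Chromosome 1 held 240 of them (38.03%), against 25.1% of the other nuclear loci. Chromosomes 2, 3, 4 and 5 held 96, 93, 79 and 123 tRNA genes. Per megabase this was 7.89 genes on chromosome 1, 4.87 on chromosome 2, 3.96 on chromosome 3, 4.25 on chromosome 4 and 4.56 on chromosome 5. Clusters of 10 or more genes occurred on chromosome 1 alone. Without the 92 genes in them, chromosome 1 had 148 tRNA genes, or 4.86 per megabase. Chromosome 2 holds a stretch that matches the mitochondrial genome; without the 23 tRNA genes in it, chromosome 2 had 73, or 3.71 per megabase.

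The plus strand carried 404 tRNA genes and the minus strand 227, so 64.0% were on the plus strand, against 50.03% of the other loci. Clusters carried most of this difference. Genes in clusters numbered 146 on the plus and 18 on the minus strand, while the 467 single genes numbered 258 and 209 (55.3% plus). Among neighbouring tRNA genes outside the large clusters, 46 of 51 pairs that started less than 2000 bp apart lay on the same strand. Of the 483 pairs farther apart, 248 (51.3%) did, against 52.2% of neighbouring pairs among the other loci. Since genes of an array are copies of each other, no test was run on these shares.

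Deposited tRNA gene lengths fell into 3 bands. The median was 72 bp, with a range of 36 to 87 bp, while the other nuclear loci had a median of 1875 bp and only 66 of them were 87 bp or shorter. The band from 71 to 75 bp held 439 genes for 18 amino acids. The band from 80 to 87 bp held 107 genes, of which 62 were for serine and 40 for leucine. Nuclear tRNAs for these amino acids have a long variable arm. The band also held 3 tyrosine genes, all in the chromosome 2 stretch that matches the mitochondrial genome, and 2 genes without an amino acid label. The band from 36 to 38 bp held 83 genes, of which 70 were for tyrosine, 11 for methionine and 2 for serine. The remaining genes, AT4G01455 and AT1G33370, had 67 and 69 bp.

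**Figure D1:**
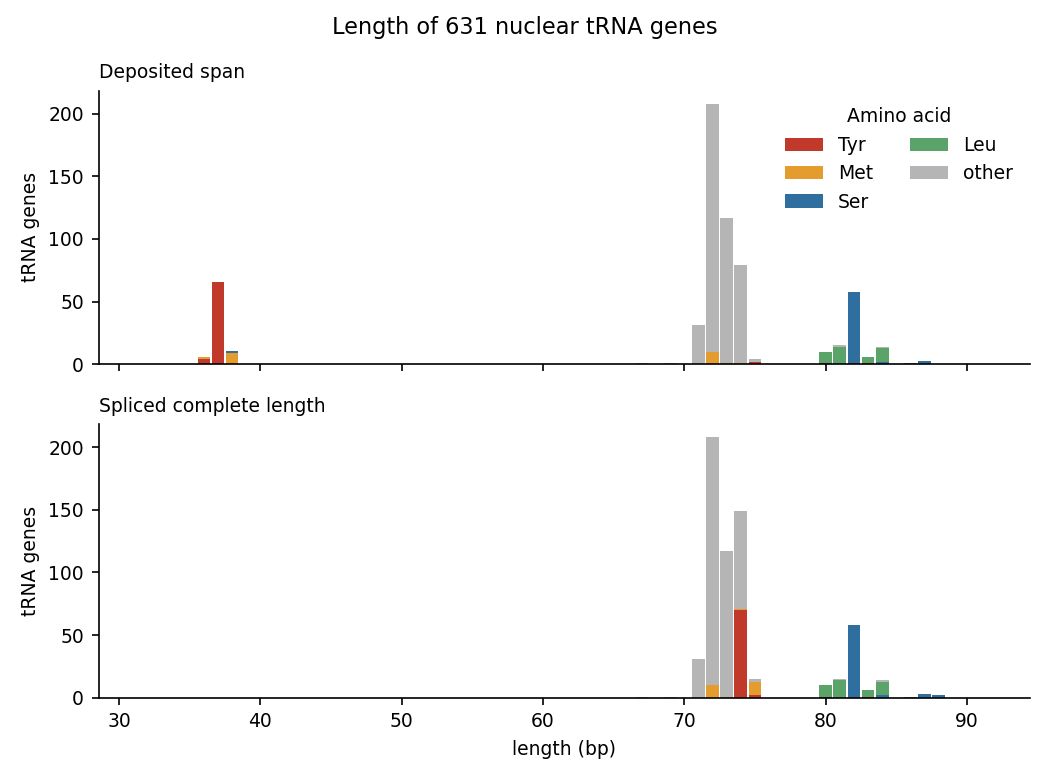
Number of tRNA genes (vertical axes) at each length in bp (horizontal axis), coloured by amino acid, for the deposited span (top) and for the complete spliced sequence (bottom). The 83 genes of 36 to 38 bp in the top panel are absent from the bottom panel, where all 631 genes lie between 67 and 88 bp.

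The 36 to 38 bp genes were parts of genes. In TAIR10.1 all 83 reached further than deposited: 77 of the deposited spans held the 5′ part and 6 held the 3′ part. All 6 that held the 3′ part lay on the minus strand and had 36 bp, the lowest length of all. They were the methionine genes AT3G07055 and AT4G31695 and the tyrosine genes AT3G10415, AT3G48515, AT4G22265 and AT4G39195. The anticodon lay inside the deposited span in 77 of the 83. Completing the 83 genes raised the median length to 73 bp and the lowest to 67 bp.

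The deposited annotation gave each of the 631 genes a single exon, so it recorded 0 introns. TAIR10.1 recorded an intron in 81 of them, in 70 of 75 tyrosine genes and in 11 of 23 methionine genes, and all 81 were among the short genes. The introns had 6 to 16 bp, with a median of 11 bp. In tyrosine genes 56 of 70 introns had 11 bp, and in methionine genes 9 of 11 had 10 bp. With the intron these genes spanned 80 to 90 bp, and without it 74 or 75 bp. In 69 of the 81, the TAIR10.1 exon was 1 base longer than the deposited span, and in 12 it had the same length. The deposited span thus had 1 end at or next to the splice site. This was its start, read along the gene, where the span held the 3′ part.

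The shortest and longest introns were both in tyrosine genes, AT1G57460 with 6 bp and AT3G10415 with 16 bp. They are shown with a methionine gene with an intron of 10 bp, AT1G04720, and with AT3G07055, a methionine gene of which the deposited span held the 3′ part. Capitals mark the intron as TAIR10.1 places it.
AT1G57460 (Tyr, chr1:21304856-21304935, plus): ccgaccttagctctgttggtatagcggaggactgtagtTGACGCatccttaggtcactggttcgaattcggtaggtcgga
AT3G10415 (Tyr, chr3:3238367-3238456, minus): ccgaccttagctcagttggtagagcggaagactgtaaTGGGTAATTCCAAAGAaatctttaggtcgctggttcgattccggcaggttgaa
AT1G04720 (Met, chr1:1324923-1325007, plus): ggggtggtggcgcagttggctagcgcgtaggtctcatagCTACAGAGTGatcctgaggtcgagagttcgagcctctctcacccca
AT3G07055 (Met, chr3:2232465-2232550, minus): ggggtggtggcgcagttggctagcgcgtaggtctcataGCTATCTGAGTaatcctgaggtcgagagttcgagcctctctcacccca
AT3G07055 as deposited (chr3:2232465-2232500, minus): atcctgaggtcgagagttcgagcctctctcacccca

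Methionine genes were grouped by whether TAIR10.1 gave them an intron. The 11 genes with an intron had 2 distinct spliced sequences, 1 of which was shared by 10 genes. Outside the mitochondrion-like stretch of chromosome 2, 10 genes had no intron and 4 distinct sequences, 1 of which was shared by 6 genes. The first gene of each group, AT1G04720 and AT1G42120, were 56.0% identical after splicing, and identities of other pairs are not given. The labels give methionine for both and do not separate initiator from elongator tRNAs. AT1G42120 is shown with its anticodon in capitals.
AT1G42120 (Met, chr1:15730615-15730686, minus): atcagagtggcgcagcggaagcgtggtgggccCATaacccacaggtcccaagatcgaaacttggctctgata

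All 5 tyrosine genes without an intron lay in the mitochondrion-like stretch, as did the 2 short genes that had no intron in TAIR10.1. These were serine genes with the anticodon GCT, AT2G07754 and AT2G07759, deposited with 38 bp and annotated with 88 bp in TAIR10.1. AT2G07759 is shown in its TAIR10.1 span with the anticodon in capitals, followed by its deposited span, which ends just after the anticodon.
AT2G07759 (Ser, chr2:3494382-3494469, plus): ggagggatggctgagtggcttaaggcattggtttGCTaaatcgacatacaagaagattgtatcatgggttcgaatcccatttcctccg
AT2G07759 as deposited (chr2:3494382-3494419, plus): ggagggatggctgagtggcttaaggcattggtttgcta

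Most tRNA genes stood alone. The median distance between the starts of neighbouring tRNA genes was 77287.5 bp, and 467 genes had no other tRNA gene starting within 2000 bp. The other 164 genes (26.0%) formed 23 clusters, of which 14 were pairs. All genes lay on the same strand in 18 clusters, and 15 clusters held a single amino acid. The pairs had starts 124 to 1829 bp apart, with a median of 658.5 bp; 9 of the 14 were on the same strand, 10 had the same amino acid and 7 had identical sequences.

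The most isolated gene was AT5G32017, an aspartate gene on chromosome 5, whose nearest tRNA gene started 1969653 bp away. AT1G36350 (Arg), AT4G08345 (Leu), AT3G30345 (Lys) and AT2G01160 (Asn) followed on the other chromosomes, at 1589147, 1378302, 883589 and 604731 bp. The longest stretch without a tRNA gene start lay on chromosome 3, from AT3G30345 to AT3G44955, and had 4.47 Mb. On chromosomes 1, 2, 4 and 5 the longest stretch had 2.04, 3.44, 3.75 and 2.02 Mb.

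The largest cluster held 81 genes in 39637 bp (chr1:21268787-21308423), all on the plus strand, from AT1G56730 to AT1G57530. It repeated a unit of a serine gene and 2 tyrosine genes 27 times without interruption, and no other annotated locus lay inside it. The spacing within units was narrow. The serine gene and the first tyrosine gene started 329 to 336 bp apart (median 333), and the tyrosine genes 430 to 460 bp apart (median 458). From the second tyrosine gene to the next serine gene the distance was 743 to 745 bp in 21 units and 558 bp in 5 units.

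Unit length fell into 2 ranges. Measured from serine gene to serine gene, 21 units had 1509 to 1537 bp and 5 had 1349 bp. The 5 short units were the 15th, 17th, 19th, 21st and 23rd, each followed by a long one. Over the stretch from the serine gene to the end of the second tyrosine gene, 850 to 880 bp per unit, pairs of units were 90.6% to 100% identical, with a median of 93.8% over 351 pairs. Neighbouring units had a median identity of 95.3% (26 pairs, 1 of them identical). Units that were 2 apart had a median of 99.5% (25 pairs, 9 of them identical), and units 3 apart had 95.1% (24 pairs, 0 identical). For 21 of the 27 units the most similar unit was 2 away, and for 3 it was a neighbour. All units whose most similar unit was not 2 away lay among units 8 to 14. Within these, neighbours were 99.08% to 100% identical, and unit 10 alone had its most similar unit 2 away. Unit 11 was equally similar, at 99.77%, to a neighbour and to a unit 2 away. The pairing of units was noticed in these data and not tested, and it rests on the assembled sequence of a long repeat.

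**Figure D2:**
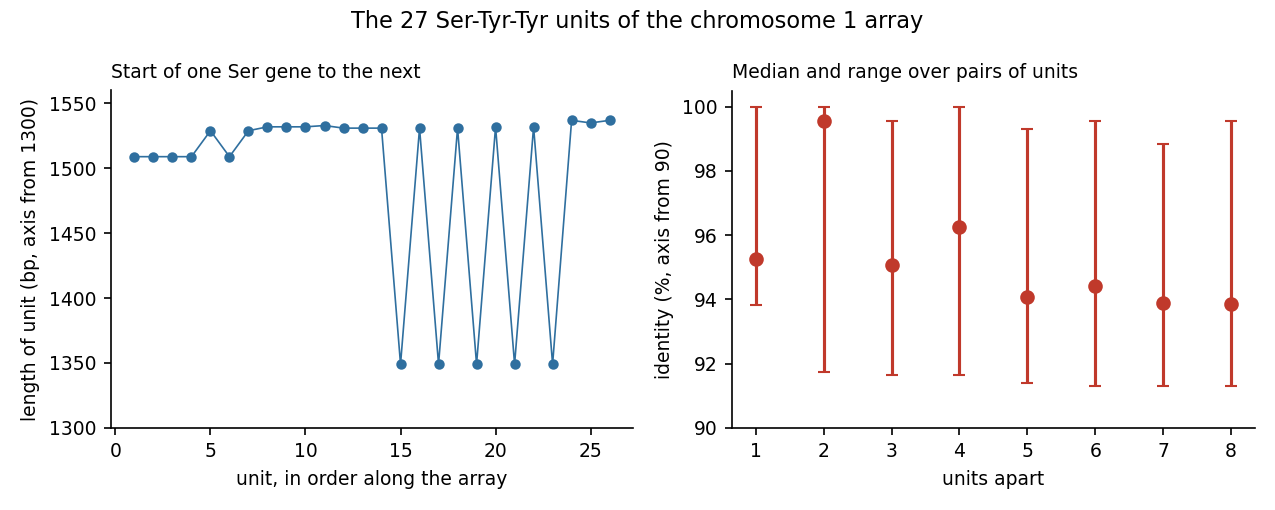
Left, length in bp of the first 26 units of the chromosome 1 array in order, from one serine gene start to the next; the vertical axis starts at 1300 bp. Right, identity in percent between units 1 to 8 positions apart, as the median (point) and range (bar); the axis starts at 90%. Units of 1349 bp alternate with longer ones from unit 15 to unit 23, and units 2 apart have the highest median.

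The genes of the array were not all alike. Its 27 serine genes had 8 distinct sequences, the commonest found in 13 of them, and its 54 tyrosine genes had 10 distinct spliced sequences, the commonest found in 32. The array held 27 of the 37 serine genes with the anticodon AGA. The commonest array serine sequence was also found outside the array, on 2 chromosomes and in 20 genes in all. The commonest tyrosine sequence was found in the array alone.

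The other large groups were of proline genes. On chromosome 1, 9 proline genes (chr1:10089437-10094244), 11 proline genes (chr1:10096951-10102064, AT1G28820 to AT1G28920) and 6 proline genes (chr1:10106090-10108781) followed each other on the plus strand. Gaps of 2778 and 4097 bp between starts separated the 3 clusters, so the 26 genes spanned 19345 bp. A further cluster on chromosome 1 held 6 proline genes and AT1G45236, which has no TAIR10.1 entry (chr1:17156607-17162093). AT1G45236 was 94.4% identical to the proline gene AT1G28870, with 4 differences. The largest cluster outside chromosome 1 held 9 proline genes on chromosome 2 (chr2:14350386-14356592).

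All 9 proline genes on chromosome 2 lay within 1 protein-coding gene, AT2G33980 (NUDT22, named as a Nudix hydrolase gene), on the opposite strand. AT2G33980 spanned 10077 bp (chr2:14349764-14359840) with 12 exons. The 9 tRNA genes lay past its stop codon, in the 6 introns of its 3′ untranslated part, 1 gene in 3 of these introns and 2 genes in the other 3, and none shared a base with an exon.

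A run of 4 cysteine genes on the minus strand of chromosome 5 (chr5:7073530-7074843) had the most even spacing among clusters of 4 or more, 413, 413 and 416 bp, although all 4 sequences differed. By amino acid alone, with an unnamed gene as its own label, 8 of the 23 clusters were mixed, of which 4 were pairs. The 2 with 3 or more genes, other than the serine and tyrosine array and the proline cluster with an unnamed gene, lay in the mitochondrion-like stretch. A pair of an aspartate and a valine gene with the anticodons GTC and AAC occurred on chromosome 1 (AT1G17660 and AT1G17670) and on chromosome 3 (AT3G59923 and AT3G59926). In both pairs the genes lay on opposite strands, with starts 125 and 124 bp apart.

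Identical copies were common. The 631 complete sequences comprised 215 distinct ones (34.1%), and 511 genes (81.0%) had at least 1 identical copy, while 120 had none. Of the sequences, 69 occurred on more than 1 chromosome and 10 on all 5. The largest family had 34 proline genes with the anticodon TGG, of which 33 lay in clusters. Next came 32 tyrosine genes, all of them in the array. The following 4 families lay mostly outside clusters, except that 13 of the 20 serine genes were in the array. They are shown by their first gene, with the B box core in capitals, and held 21 aspartate, 20 serine, 15 lysine and 15 phenylalanine genes.
AT1G03515 (Asp, chr1:877648-877719, plus): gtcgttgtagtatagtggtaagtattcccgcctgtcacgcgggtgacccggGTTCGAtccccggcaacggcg
AT1G15650 (Ser, chr1:5380907-5380988, plus): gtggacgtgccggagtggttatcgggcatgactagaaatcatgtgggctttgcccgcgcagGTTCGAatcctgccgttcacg
AT1G01890 (Lys, chr1:309275-309347, minus): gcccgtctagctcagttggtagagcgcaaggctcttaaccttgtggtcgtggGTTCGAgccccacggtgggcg
AT1G02480 (Phe, chr1:515494-515566, plus): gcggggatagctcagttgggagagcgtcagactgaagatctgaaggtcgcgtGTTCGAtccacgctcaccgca

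The 623 named genes covered all 20 amino acids. Tyrosine had the most genes, 75, followed by proline with 66, serine with 64, glycine with 41 and leucine with 40. Histidine had the fewest, 10, then tryptophan with 14 and cysteine with 15. The order depended on the clusters. Outside clusters of 10 or more, tyrosine had 21 genes and serine 37, and outside all clusters tyrosine had 18, proline 24 and serine 33. Arginine (36 genes), isoleucine, methionine, glutamine, tryptophan and histidine had 0 genes in clusters.

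**Figure D3:**
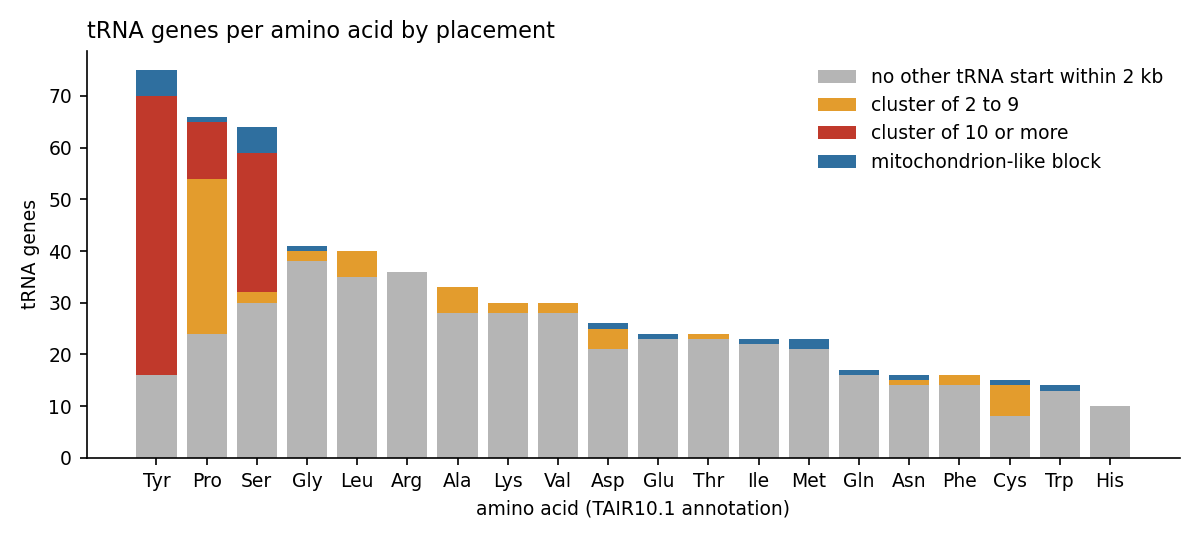
Number of tRNA genes (vertical axis) for each of the 20 amino acids (horizontal axis), divided by placement: alone, in a cluster of 2 to 9, in a cluster of 10 or more, or in the mitochondrion-like stretch of chromosome 2, whose genes are counted there whether or not they lie in a cluster. Tyrosine, proline and serine lead with 75, 66 and 64 genes, and for tyrosine 54 of these are in the array.

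The number of genes per amino acid was set beside the share of codons in 27170 intact nuclear coding sequences (10957177 codons, 1 sequence per gene). Tyrosine took 2.84% of codons with 75 tRNA genes, whereas leucine took 9.53% with 40. Over the 20 amino acids, Pearson's r was 0.394 and Spearman's rho 0.621 with all named genes. With the genes outside clusters of 10 or more, r was 0.655 and rho 0.788. With the 460 named genes outside all clusters, r was 0.790 and rho 0.805. These values describe the 20 amino acids of 1 genome, in which the points share the number of codons that encode an amino acid, and no p is given.

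**Figure D4:**
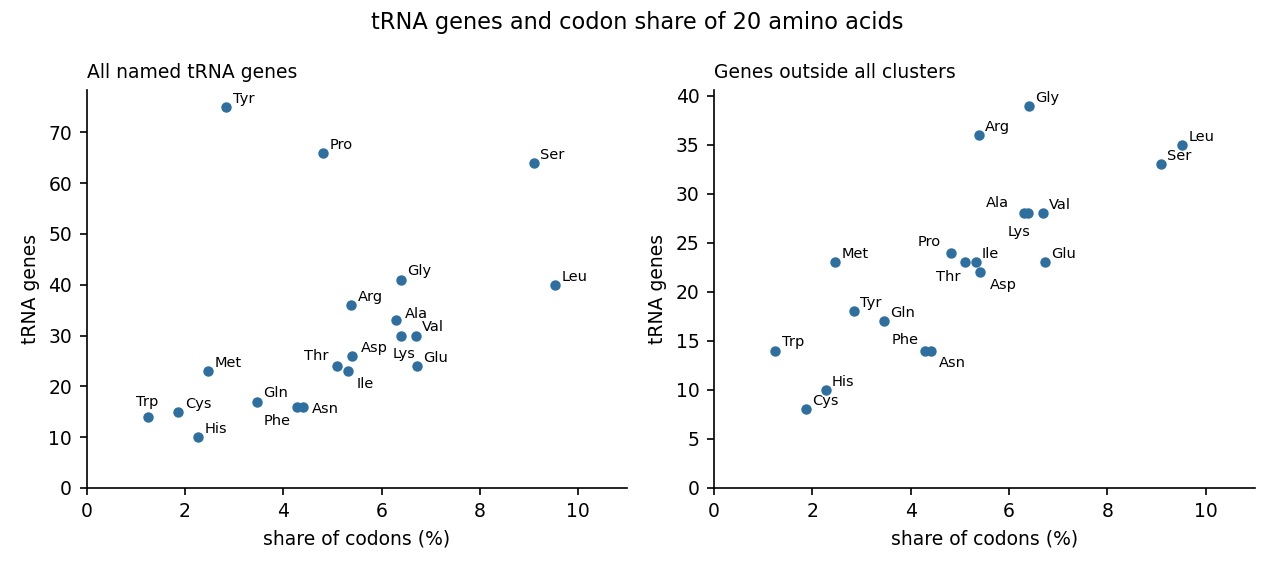
Number of tRNA genes (vertical axes) against the share of codons in percent (horizontal axes) for 20 amino acids, with all 623 named genes on the left and the 460 named genes outside clusters on the right. Tyrosine, proline and serine stand above the rest on the left at 75, 66 and 64 genes, and stand at 18, 24 and 33 on the right.

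Of the 61 anticodons possible in the standard code, 47 had at least 1 nuclear gene and 14 had 0. Every anticodon that starts with C (15 of 15) or T (14 of 14) had a gene, while those that start with A or G each had 9 of 16. Codons that end in T or C formed 16 pairs with the same amino acid and first 2 bases, each of which an anticodon starting with A or with G could serve. Leaving out the mitochondrion-like stretch, 8 pairs had genes with A alone, 7 had genes with G alone and 1 had both. Those with A alone were for serine (AGA, 37 genes), leucine, proline, arginine, isoleucine, threonine, valine and alanine. Those with G alone were for phenylalanine, tyrosine, cysteine, histidine, asparagine, aspartate and the other serine pair.

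The pair with both was for glycine, with 22 genes for GCC and 1 for ACC. The ACC gene, AT1G33370, had 69 bp, and only 5 of the 7 base pairs of its acceptor stem, the paired ends of the molecule, could form. Labels with 3 or fewer genes were otherwise leucine CAG, with AT1G18820, AT1G74610 and AT4G16475, all of 81 bp, and isoleucine CAT and serine GGA. The isoleucine CAT gene AT2G07794 and the serine GGA gene AT2G07757 both lay in the mitochondrion-like stretch. By deposited span, AT2G07757 was among the 3 longest genes, with 87 bp, beside AT2G07793 and AT2G07766. The rarest labels are shown with the anticodon in capitals.
AT1G33370 (Gly, chr1:12097279-12097347, minus): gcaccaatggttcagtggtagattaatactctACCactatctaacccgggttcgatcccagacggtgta
AT2G07794 (Ile, chr2:3383404-3383477, minus): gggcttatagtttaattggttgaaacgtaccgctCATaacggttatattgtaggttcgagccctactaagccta
AT2G07757 (Ser, chr2:3452977-3453063, plus): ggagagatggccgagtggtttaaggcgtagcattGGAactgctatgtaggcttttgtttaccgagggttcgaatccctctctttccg

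A stretch of chromosome 2 stood apart. The complete sequences of 23 nuclear tRNA genes were found letter for letter in the mitochondrial genome of TAIR10.1. All 23 lay in 263952 bp of chromosome 2 (chr2:3239657-3503608), and they were all the tRNA genes there. The surrounding sequence matched too: of 5279 words of 50 bases sampled across the stretch, 5063 (95.9%) occurred in the mitochondrial genome. The 50 bases next to the gene, on the side of lower positions whichever its strand, occurred there for 22 of the 23 genes. They did so for 0 of the other 608 tRNA genes. A single nuclear tRNA gene, AT3G20365, was identical to a chloroplast sequence. The large mitochondrial insertion in Arabidopsis chromosome 2 is known from the genome sequence.

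The named genes among the 23 were for 12 amino acids, while AT2G07742 and AT2G07778 have no TAIR10.1 entry. The 23 genes had 19 distinct sequences, of which 0 were shared with the other tRNA genes. Their GC content had a median of 48.8%, against 56.0% for the other tRNA genes and 36.03% for the nuclear genome. Of the 23, 9 lay in clusters, 1 of 3 genes and 1 of 6. The stretch also held 104 annotated loci that are not tRNA genes.

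Features of RNA polymerase III genes were searched in the complete spliced sequences and their surroundings. In the tRNA genes, 560 of 631 (88.7%) matched the A box pattern and 584 (92.6%) matched the B box core GTTCNA. In the first 73 bp of the other loci, 2.36% matched the A box and 6.21% the B box core. The A box began at base 8 in 544 genes and the B box core began 21 bases from the end in 580. Both were found in 521 genes and neither in 8. On the opposite strand, 0 tRNA genes matched the A box and 57 (9.03%) matched the B box core, against 2.69% and 4.98% of the other loci. All 7 pairs of the acceptor stem could form in 572 tRNA genes, against 0.119% of the other loci read the same way. The boxes and the stem are parts of the tRNA sequence itself, so these shares do not measure promoter use.

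Genes without the A box pattern included 37 serine, 11 glutamate and 8 alanine genes, and 25 of the serine genes were in the array. Genes without the B box core included 16 alanine, 10 histidine and 10 methionine genes. A missing match says only that these letters were not in the gene.

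Before the gene, CAA occurred within 10 bases in 457 tRNA genes (72.4%), against 19.2% of the other loci. Its reverse complement TTG occurred there in 4.60% of tRNA genes and 14.4% of the other loci. TATA, which is its own reverse complement, occurred within 40 bases in 329 tRNA genes (52.1%), against 29.4% of the other loci. After the gene, a run of 4 T occurred within 25 bases in 579 tRNA genes (91.8%), against 28.1% of the other loci, and it began at a median of 6 bases. A run of 4 A occurred there in 14.1% of tRNA genes and 21.5% of the other loci.

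The genes of the mitochondrion-like stretch were set beside the other tRNA genes, both for their surroundings and for the features inside them. CAA preceded 5 of 23 (21.7%), against 452 of the other 608 (74.3%), and TATA preceded 4 of 23 (17.4%), against 325 of 608 (53.5%). A T run followed 4 of 23 (17.4%), against 575 of 608 (94.6%). For these 3 features the stretch was close to or below the other loci. Inside the gene the A box was found in 12 of 23 (52.2%), against 548 of 608 (90.1%), and the B box core in 23 of 23, against 561 of 608 (92.3%). All 7 acceptor stem pairs could form in 19 of 23 (82.6%), against 553 of 608 (91.0%). Neighbouring genes of the stretch share their source, so no test was run.

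**Figure D5:**
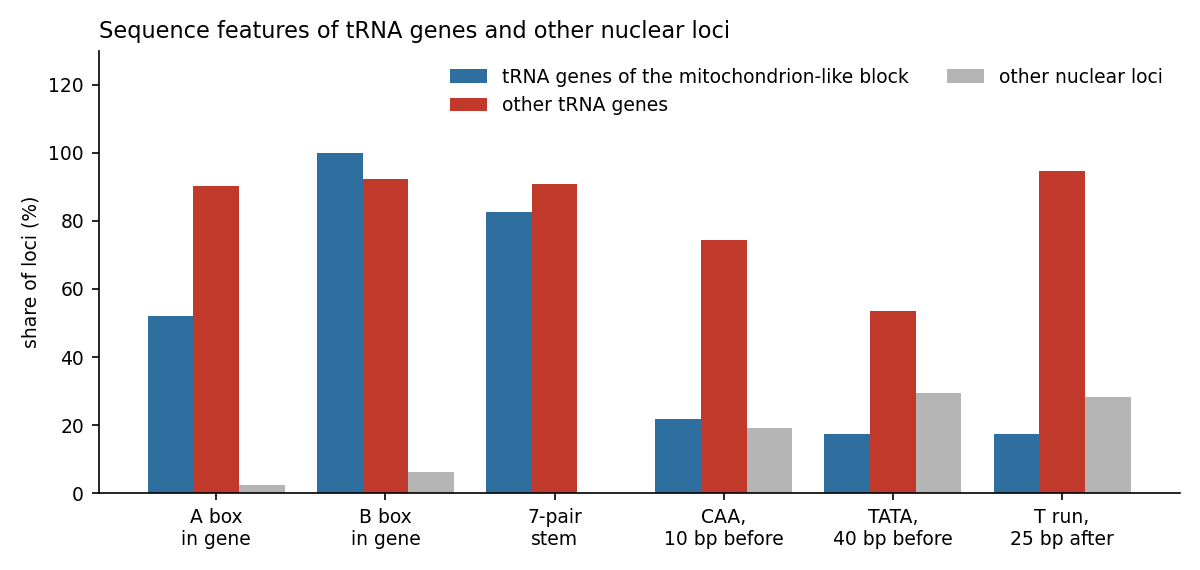
Share of loci in percent (vertical axis) with each sequence feature, for the 23 tRNA genes of the mitochondrion-like stretch, the other 608 tRNA genes and the other nuclear loci. The T run after the gene is at 17.4% in the stretch, 94.6% in the other tRNA genes and 28.1% in the other loci; the B box core is at 100%, 92.3% and 6.21%.

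At least 1 base was shared with a locus of another class by 62 tRNA genes (9.83%), and 0 tRNA genes overlapped each other. Among coding genes, 13.9% shared a base with another locus, coding genes included. These shares are not matched for length, which affects overlap. The median span was 72 bp for tRNA genes and 1875 bp for the other nuclear loci. For the 62 tRNA genes, the partner was a protein-coding gene for 58 and a transposable element gene for 4. The partner lay on the same strand for 22 and on the opposite strand for 40. Bases of the partner's exons were shared by 30 genes, and 32 lay in introns alone. Genes of the same cluster inside the same partner count separately here. The 9 proline genes within AT2G33980 and all tRNA genes within AT1G45229 lay on the opposite strand and in introns alone. Of the 62 genes, 9 lay in the mitochondrion-like stretch, with partners on either strand. In 48 cases the tRNA gene lay wholly inside the partner.

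A tRNA gene wholly inside its partner shares its full length, so a ranking by shared bases favours long genes. By deposited spans, the tRNA genes that shared the most bases were 4 leucine genes and 1 serine gene. These spans are incomplete for the 83 short genes: AT4G22265 (Tyr) shared 36 bp as deposited, but its TAIR10.1 span of 86 bp lay whole in AT4G22270, which equals the most shared by any gene. AT4G08345 (Leu) lay whole, with 86 bp, in an intron of the transposable element gene AT4G08340 on the same strand. AT4G25635 (Leu) lay whole, with 84 bp, in exon sequence of AT4G25640 (DTX35, of the detoxification efflux carrier family) on the same strand. AT5G07625 (Leu) lay whole in AT5G07630 on the same strand, with 32 of its 84 bp in exons. AT1G80430 (Ser) lay whole, with 82 bp, in an intron of AT1G80420 (ATXRCC1, a DNA repair gene) on the opposite strand. AT1G64120 (Leu) shared 78 bp with the start of AT1G64130 on the same strand, 57 of them in exons.

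The neighbours of tRNA genes were mostly protein-coding. The nearest locus of another class was a median of 181 bp away, and 138 bp for the 539 genes outside the large clusters, while coding genes had their nearest other locus a median of 342 bp away. A locus of another class lay within 1000 bp of 78.6% of tRNA genes, where other tRNA genes were not counted. For coding genes, with other coding genes counted, the share was 79.3%. The nearest locus of another class was protein-coding for 612 tRNA genes (97.0%) and a transposable element gene for 9 (1.43%). Of all the other nuclear loci, 83.2% were protein-coding and 11.9% were transposable element genes. The latter shares describe all loci and not nearest neighbours, so the measures differ. All genes of the serine and tyrosine array had AT1G56720 or AT1G57540 as their nearest such locus.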

How the data were processed

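The authors deposited 1 gene annotation file, of 590264 feature lines, with start and end positions in bp (unit other) and 0 columns of values per library; its score column was empty. Per the submitters' processing notes the build was TAIR10 and Trimmomatic 0.0.3 and TopHat2 2.0.8 were used, with no role given. Read depth and expression were not analysed here.

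Loci were selected with Python 3.11.15, pandas 2.3.3 and numpy 2.4.6; cluster joining, splicing and stem pairing were tested on simulated data. Figures used matplotlib 3.10.9. Starts less than 2000 bp apart joined neighbours into a cluster. Amino acid, anticodon and intron came from the RefSeq annotation of TAIR10.1, matched by locus. At TAIR10 positions, 27170 of 27206 nuclear coding genes (99.9%) had an intact reading frame in TAIR10.1. Complete sequences are deposited spans, or TAIR10.1 exons for the 83 genes of 40 bp or less. Identity is the share of the longer sequence left after the edit distance (edlib). Features were searched on the gene's strand and the opposite one.

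Named genes are the shortest and longest, those with the shortest and longest intron, the ends of clusters of 10 or more, the 5 sharing most bases with another locus, the first of each of the 6 largest families (a tie at the fifth place), the most isolated per chromosome and those of anticodons with 3 or fewer genes; others were chosen after their values were seen. Members and lists were chosen with earlier results of these data known. No test was run, since the annotation is a single record with no replicate.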

Additional observations from a re-analysis of the deposited data

How the results depend on the processing

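Joining neighbours within 1000 or 5000 bp, by gaps, by 5′ ends or on the same strand, or reading TAIR10.1, left 151 to 200 tRNA genes in clusters. The number of clusters was 39 with 5000 bp and 9, with 136 genes, when pairs were left out; 7 clusters had 5 or more genes. Without clusters of 10 or more, chromosome 1 held 27.5% of tRNA genes, the plus strand 57.9% (55.3% without any cluster), the median length was 73 bp, 29 genes had 40 bp or less, 27 had an intron in TAIR10.1, and 91.5% had the A box. In TAIR10.1 the median was 73 bp, 0 genes had 40 bp or less and 81 had an intron. Counting exonic bases of both loci left 30 overlapping genes, and same-strand partners 22. CAA within 20 bases was found in 78.5% and a T run within 50 bases in 95.6%; without the mitochondrion-like stretch a T run followed 94.6%. The distinct sequences numbered 197 to 230 under the 4 alternatives. Leaving out the stretch or all clusters, leaving out clusters of 10 or more for the strand and codon shares, sequences from deposited spans or TAIR10.1 exons, and shared bases by TAIR10.1 spans were chosen after seeing the data. No paired analysis was possible because the annotation has no libraries to pair.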

Other observations

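Besides the spans and introns that differ, 10 nuclear tRNA loci are entered in only 1 of the 2 annotations. TAIR10.1 has no tRNA entry for 8 of the 631 genes. Of these, AT2G07742 and AT2G07778 were identical to mitochondrial sequence and AT3G20365 to chloroplast sequence. AT1G45236 lay within a proline cluster. AT2G21760 was 84.7% identical to the histidine gene AT2G28770, AT4G01455 was 83.3% identical to the glutamate gene AT1G75970, AT4G22785 was 79.0% identical to the lysine gene AT1G01890, and AT1G57710 was at most 61.6% identical to any named gene. The acceptor stem could form 3 of 7 pairs in AT4G01455 and 5 of 7 in AT4G22785. AT1G45236 and AT4G22785 are shown with the B box core in capitals.
AT1G45236 (chr1:17157360-17157431, plus): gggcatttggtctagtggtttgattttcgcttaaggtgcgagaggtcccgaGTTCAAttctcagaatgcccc
AT4G22785 (chr4:11974941-11975021, plus): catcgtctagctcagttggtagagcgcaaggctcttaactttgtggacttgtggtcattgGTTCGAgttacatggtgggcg

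TAIR10.1 has 2 nuclear tRNA genes that are absent from the deposited annotation, AT2G05315 (Phe, chr2:3437584-3437652, plus) and AT2G05355 (Tyr, chr2:3489589-3489657, plus). Both have 69 bp and lie inside the mitochondrion-like stretch of chromosome 2.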
